A study of Mus musculus with 6 samples.

Results

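The 10 genes described here encode fibroblast growth factor (FGF) ligands (Fgf1, Fgf4, Fgf5, Fgf8, Fgf15 and Fgf17) and all 4 of the signalling FGF receptors (Fgfr1, Fgfr2, Fgfr3 and Fgfr4). They were found by symbol among the 51912 gene rows of an RNA-seq count table, and all 10 had a row. R1 mouse embryonic stem cells had been kept in the naive pluripotent state in 2iLIF medium, which holds inhibitors of MEK and GSK3 and the cytokine LIF. They were then given FGF2 at 100 ng/ml in the serum-free medium N2B27, for 24 h in 3 libraries and for 48 h in 3 libraries. Both groups carry the same cell line, medium and FGF2 dose, so time in FGF2 is the only one of these labelled conditions that separates them. Cells without FGF2, or at the start, were not analysed here, so every result below is 48 h against 24 h and the part of FGF2 itself, of the change of medium and of time in culture cannot be told apart. The labels do not say whether replicates were separate cultures, so p-values measure the spread between these libraries, which may be technical.

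FGF ligands are mostly secreted proteins that bind a receptor tyrosine kinase together with heparan sulphate, a sulphated sugar chain of the cell surface. The bound receptors pair up, phosphorylate the docking protein FRS2 and pass the signal to the RAS-ERK cascade, and ERK targets such as the Sprouty genes feed back on it. In mouse embryonic stem cells, FGF4 made by the cells themselves is known to prime them to leave the naive state, FGFR1 and FGFR2 are the receptors best known to receive it, and Fgf5 is a classical marker of the epiblast after implantation.

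Each library held between 19574969 and 23133148 estimated counts, and replicate pairs differed by more than counting noise. Defining markers of pluripotent cells were abundant, with the 10 listed genes summing to between 5551 and 5605 CPM (counts scaled to a common library size, with TMM factors) at 24 h and between 4153 and 4241 at 48 h. All 10 changed at an adjusted p under 0.05 (edgeR), 6 downward and 4 upward, where 62.8% of all genes tested changed. The sizes varied, down to a log2 fold change of -0.07 for Pou5f1. Nanog, Esrrb and Zfp42, genes of the naive state, fell by 1.995, 1.47 and 1.065 on the log2 scale, and Lin28a and Utf1 rose by 1.55 and 0.60. Markers of fibroblast feeder cells summed to at most 6.02 CPM in any library, with Postn and Lum at 0 in all of them. Of these 9 markers 4 were tested, and 1 rose and 2 fell at an adjusted p under 0.05 (edgeR). Dcn went from 0 counts in each 24 h library to 23, 25 and 32 at 48 h (log2 fold change 7.724). The size of that fold change is not well measured, since a 0 at 24 h allows up to between 0.127 and 0.150 CPM. Pdgfrb and Col1a1 had log2 fold changes of -1.799 and -1.756. Dcn passed the filter only through the 48 h libraries and Col1a1 only through the 24 h libraries. Primitive endoderm markers went from between 50.01 and 58.1 to between 16.6 and 17.2 CPM, mostly through Lama1. Trophoblast markers went from between 25.5 and 26.1 to between 8.93 and 9.46 CPM, mostly through Krt8. Primitive streak markers went from between 15.9 and 19.02 to between 12.9 and 14.96 CPM. Of these 6 streak markers, all but Eomes had at most 11 counts in each library. Neural markers summed to between 132.6 and 141.2 CPM at 24 h and between 166.3 and 180.1 at 48 h, but moved both ways: Sox1, Sox3, Pax6 and Zic1 rose, with log2 fold changes of 1.31, 2.14, 1.56 and 1.86 (Zic1 passing the filter only through the 48 h libraries), while Tubb3 and Nes fell by 0.53 and 0.19. Mitochondrial genes took between 3.08% and 3.19% of counts at 24 h and between 2.76% and 2.94% at 48 h. The part of these shifts in the results below was not tested. In bulk RNA, more cells that express a gene and more RNA in each cell cannot be told apart.

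Among the mRNAs of the members, 1 ligand and 1 receptor were by far the highest at both times, Fgf4 and Fgfr1. Both rose from 24 h to 48 h, by 22.9% and 14.8%. By contrast, Fgf5 rose 24.8-fold, Fgf15 12.9-fold, Fgfr2 8.15-fold and Fgf1 3.16-fold, each from a low level at 24 h. Fgf17 and Fgfr4 did not pass the test, Fgfr3 passed it at levels under 1 CPM, and Fgf8 had too few counts to test. Of the 9 genes tested, 7 rose and 0 fell at an adjusted p under 0.05 (edgeR's quasi-likelihood test, adjusted over all 14889 genes tested). Over all genes tested, 62.8% changed, 30.9% upward and 31.9% downward. A change of at least 2-fold was called for 5 of the members and for 11.2% of all genes tested. The values of the 24 h and 48 h libraries did not overlap for 7 of the members tested and for 66.9% of all genes tested. Fgfr3 passed the filter on low counts only through its 48 h libraries, so its place among these counts was favoured by the filter.

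**Figure D1:**
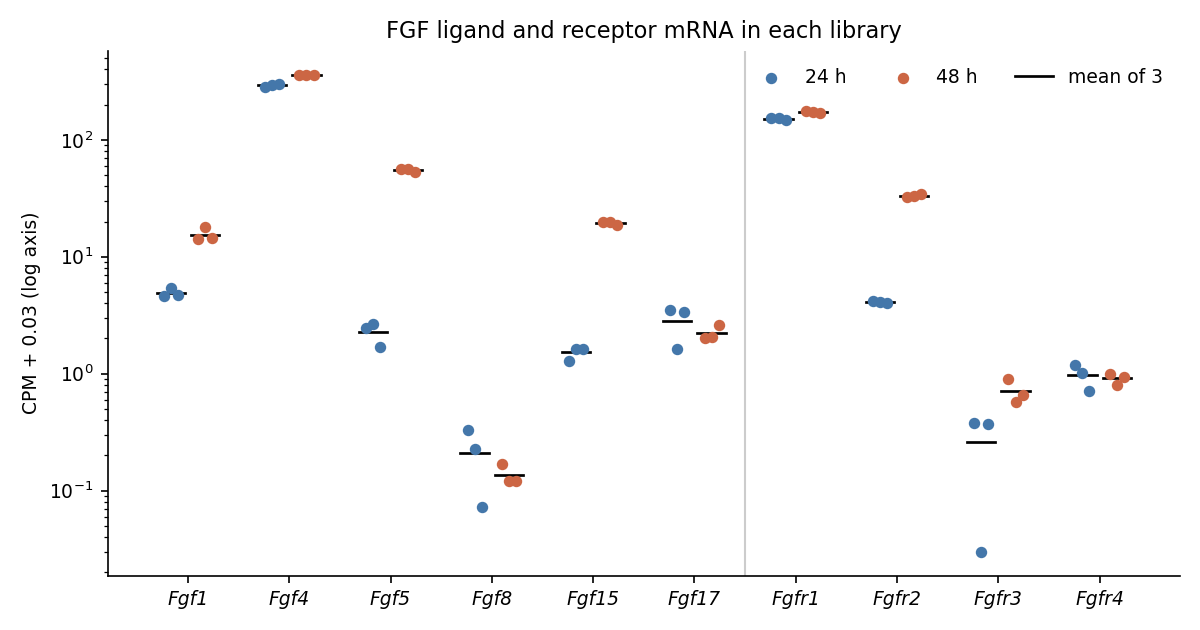
Level of each FGF ligand (left of the line) and receptor (right) in each of the 6 libraries, as CPM + 0.03 on a log axis; points are libraries and bars are means of 3. Fgf4 and Fgfr1 stand highest at both times, while Fgf5, Fgf15, Fgfr2 and Fgf1 separate widely between 24 h and 48 h and the points of Fgf8, Fgf17 and Fgfr4 overlap.

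The promoters of the members with RefSeq start sites were described first. RefSeq windows (GRCm38.p6) from 250 bases before to 50 after a start were found for 5 of the 10 members, with 6 windows in all. Shown are the 250 bases before the start of Fgf4, the most abundant ligand, and of Fgf5 and Fgfr2, the ligand and the receptor with the largest increases. None of these stretches overlaps an exon in GENCODE M21. They are written 5′ to 3′ on the gene's strand, and capitals mark motif matches. Fgf4 lies at chr7:144861136-144861385 (+), Fgf5 at chr5:98253934-98254183 (+) and Fgfr2 at chr7:130266809-130267058 (-).
Fgf4: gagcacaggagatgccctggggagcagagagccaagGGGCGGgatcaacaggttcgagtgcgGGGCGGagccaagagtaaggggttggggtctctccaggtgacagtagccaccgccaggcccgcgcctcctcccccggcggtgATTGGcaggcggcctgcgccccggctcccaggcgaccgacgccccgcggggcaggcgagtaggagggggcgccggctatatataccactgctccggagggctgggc
Fgf5: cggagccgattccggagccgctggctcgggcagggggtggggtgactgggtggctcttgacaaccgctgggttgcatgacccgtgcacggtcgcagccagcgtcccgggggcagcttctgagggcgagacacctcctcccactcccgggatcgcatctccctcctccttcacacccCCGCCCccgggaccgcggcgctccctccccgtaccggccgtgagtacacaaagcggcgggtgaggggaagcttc
Fgfr2: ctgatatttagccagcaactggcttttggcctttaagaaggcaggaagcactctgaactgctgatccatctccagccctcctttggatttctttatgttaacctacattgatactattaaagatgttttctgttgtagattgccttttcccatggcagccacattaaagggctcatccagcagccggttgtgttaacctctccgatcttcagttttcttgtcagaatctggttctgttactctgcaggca

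The motifs searched, on both strands, were the TATA box TATAAA, the octamer core ATGCAAA, the SOX core ACAATG, the OTX core TAATCC, the ETS site CCGGAAG, the motif CCAAT and the GC box GGGCGG. On the opposite strand CCAAT reads ATTGG. The Fgf4 window held GGGCGG at positions -214 and -188, counted back from the start, and CCAAT on the opposite strand at -106. Only exact letters were matched, so the run tatatata near the end of the Fgf4 stretch was not counted as TATAAA. The Fgf5 window held GGGCGG on the opposite strand at -74 and TATAAA at 35, after the start and outside the stretch shown. The Fgfr2 window held 0 of these motifs. Fgf4 and Fgf5 had similar base composition (69.7% and 68.3% G or C, with 28 and 29 CpG pairs). Fgf4 rose by 22.9% and Fgf5 by the largest fold of the members tested. A link between composition and these changes was not tested. The Fgfr2 window had 43.7% G or C and 4 CpG pairs, against medians of 52.7% and 7 pairs over all 32851 windows. Among all windows 35.7% held GGGCGG, 37.4% CCAAT, 13.6% TATAAA, 12.6% ACAATG, 8.86% CCGGAAG, 7.06% TAATCC and 4.63% ATGCAAA. The windows of Fgfr3 and Fgfr4 also held GGGCGG, and their upstream parts overlap annotated exons. A match is a match of letters and was not tested as a binding site, and the RefSeq start of Fgfr2 (position 130266808) lies upstream of the starts of all but 1 of its GENCODE M21 transcripts. The RefSeq start of Fgf4 (position 144861386) and the stretch shown lie inside its GENCODE M21 gene, which begins at 144847367.

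The ligands were taken first. Fgf4 (ENSMUSG00000050917, GRCm38 chromosome 7, 144847367 to 144865243, plus strand) encodes the ligand that embryonic stem cells make in quantity. It stood at 283, 293.4 and 299.4 CPM in the 24 h libraries and at 356, 360.9 and 359.9 CPM in the 48 h libraries. The groups did not overlap, and the increase of 22.9% (log2 fold change 0.30, standard error 0.022, adjusted p = 3.56e-09) was the smallest called among the ligands. In CPM its gain of 67.0 was larger than the 52.8 CPM gained by Fgf5, but CPM is not scaled for gene length. Per kilobase of the longest transcript, the mean of Fgf4 went from 96.4 to 118.5 CPM. That of Fgf5 went from 0.899 to 22.03 CPM, so the gains were similar on that scale. With library size as the only scaling the log2 fold change of Fgf4 was 0.24.

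Fgf5 (ENSMUSG00000029337, chromosome 5, 98254184 to 98277030, plus strand) encodes a secreted ligand of the early epiblast. It had 2.45, 2.64 and 1.65 CPM at 24 h, from 49, 54 and 39 counts, and 56.2, 55.7 and 53.3 CPM at 48 h, from 1222, 1219 and 1182 counts. Every 48 h library was far above every 24 h library, and the 48 h values had an SD of only 1.56 CPM around a mean of 55.1. At 4.63 ± 0.088 (log2 fold change and its standard error, adjusted p = 1.19e-16), the step was the largest of the 9 genes tested. Over the 14 alternative fits it lay between 4.43 and 4.76.

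Fgf15 (ENSMUSG00000031073, chromosome 7, 144896531 to 144900953, plus strand) encodes a ligand of the endocrine subfamily, which needs a Klotho-type co-receptor for strong binding. It rose from 1.25, 1.61 and 1.61 CPM to 19.9, 19.8 and 18.6 CPM, with no overlap (log2 fold change 3.69 ± 0.111, adjusted p = 3.98e-14). Klb, the co-receptor that serves this ligand in the liver, had 16, 16 and 22 counts at 24 h and 16, 12 and 9 at 48 h and was not called (adjusted p = 0.139), and Kl had at most 4 counts in a library. Of the antisense genes that share exon bases with Fgf15, Gm26793 (761 shared bases) had at most 9 counts in a library and Gm39119 had 0, so the genes of the other strand took few counts. Whether reads were counted by strand is not given in the sources used here.

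Fgf15 lies beside Fgf4 on chromosome 7. By the gene ends of GENCODE M21, the gap between these genes is 31.3 kb and Fgf3 ends 2.9 kb before Fgf4. The RefSeq start of Fgf4, at 144861386, lies further from Fgf3 than this gene end. In GENCODE M21, 0 other protein-coding genes lie between these neighbours. The neighbours moved by very different amounts. Fgf3, which encodes a ligand known from inner ear development, had 14, 21 and 23 counts at 24 h and 23, 26 and 37 at 48 h, a log2 fold change of 0.53 ± 0.279 (standard error) that was not called (adjusted p = 0.111). Fgf4 in the middle rose by 0.30 and Fgf15 by 3.69 on the same scale. Differences between these neighbours were not tested.

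Fgf1 (ENSMUSG00000036585, chromosome 18, 38838673 to 38929472, minus strand) encodes a ligand that lacks a classical secretion signal and can bind all of the receptors. It rose from 4.56, 5.42 and 4.70 CPM to 14.04, 17.96 and 14.4 CPM. The 48 h values were all above the 24 h values, although 48 h replicate 2 stood apart from the other 2 of its group. The log2 fold change was 1.66 ± 0.114 (standard error; adjusted p = 1.72e-09), and it lay between 1.54 and 1.74 over the alternatives.

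Fgf8 and Fgf17 encode closely related ligands of 1 subfamily, known from the primitive streak and the midbrain boundary. Fgf17 (ENSMUSG00000022101, chromosome 14, 70636203 to 70642268, minus strand) had 3.45, 1.61 and 3.35 CPM at 24 h and 1.98, 2.01 and 2.57 CPM at 48 h. The ranges overlap because 24 h replicate 2 lay below all 48 h libraries, and the log2 fold change of -0.36 (95% interval -0.87 to 0.14) was not called (adjusted p = 0.197). Without that library it was -0.63 with an adjusted p of 0.00742, so the absence of a call rests on it. Fgf8 (ENSMUSG00000025219, chromosome 19, 45736798 to 45742915, minus strand) had 6, 4 and 1 counts at 24 h and 3, 2 and 2 at 48 h. A fall or a small rise of Fgf8 was not detectable at this depth, where 3 counts correspond to between 0.127 and 0.150 CPM. A large rise was not seen, as the 48 h libraries held at most 3 counts.

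**Figure D2:**
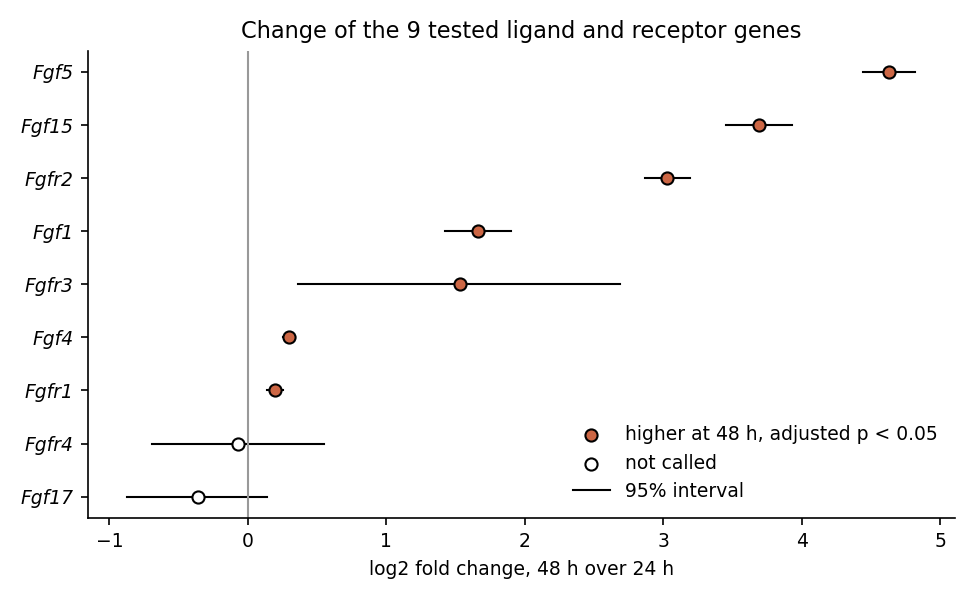
Log2 fold change from 24 h to 48 h of the 9 tested genes, with lines for the 95% interval from the edgeR fit; filled points were called at an adjusted p under 0.05. Fgf5 (4.63), Fgf15 (3.69) and Fgfr2 (3.03) have narrow intervals far above 0, Fgf4 and Fgfr1 lie just above 0, and Fgfr3 has the widest interval, 0.36 to 2.69.

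Turning to the receptors, Fgfr1 (ENSMUSG00000031565, chromosome 8, 25513654 to 25575718, plus strand) was the main receptor mRNA. It stood at 153, 153.3 and 147.4 CPM at 24 h and at 177.3, 172.3 and 170.9 CPM at 48 h. The groups did not overlap, and the increase of 14.8% (log2 fold change 0.20 ± 0.026, adjusted p = 3.89e-06) was the smallest called among the members. It was 0.14 with library size as the only scaling, and its direction held in all 14 alternative fits. Gm16159, antisense to Fgfr1 over 164 exon bases, had at most 2 counts in a library.

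Fgfr2 (ENSMUSG00000030849, chromosome 7, minus strand) encodes the receptor whose splice forms bind different sets of ligands. It rose from 4.16, 4.05 and 4.03 CPM to 32.1, 33.1 and 34.6 CPM, the widest change of a receptor (log2 fold change 3.03 ± 0.076, adjusted p = 3.68e-15). The values within a group were tight, with a mean of 4.08 ± 0.068 CPM (SD, n = 3) at 24 h and 33.3 ± 1.22 CPM (SD, n = 3) at 48 h. Gene-level counts do not separate the splice forms. Fgfr2 was the only member with fractional counts, which RSEM gives where reads are divided between genes. In GENCODE M21 the gene spans 130162451 to 133123350, but only 1 of its 27 transcripts reaches beyond 130266263. The gene shares 314 exon bases on the same strand with Ctbp2, which encodes a transcriptional co-repressor. Ctbp2 itself rose by 0.55 on the log2 scale (adjusted p = 1.72e-12), with means of 219.2 ± 6.20 CPM at 24 h and 321 ± 2.42 CPM at 48 h (SD, n = 3). Its part in the Fgfr2 values was not tested, and the annotation used for the deposited counts is not given in the sources used here.

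Fgfr3 (ENSMUSG00000054252, chromosome 5, 33721674 to 33737068, plus strand) encodes the receptor known for its role in growing cartilage. It had 7, 0 and 8 counts at 24 h and 19, 12 and 14 at 48 h, or 0.350, 0 and 0.339 CPM against 0.875, 0.548 and 0.631 CPM. The 0 of 24 h replicate 2 allows up to 0.146 CPM. The fitted log2 fold change of 1.53 ± 0.549 passed the threshold (adjusted p = 0.0231) but lost the call without 24 h replicate 2 (0.98, adjusted p = 0.0751) or without 48 h replicate 1 (1.32, adjusted p = 0.0869). The TEC gene G630022F23Rik, which shares 998 exon bases on the opposite strand, had 0 counts.

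Fgfr4 (ENSMUSG00000005320, chromosome 13, 55152640 to 55168759, plus strand), the receptor that pairs with Klb in hepatocytes, had 23, 20 and 16 counts at 24 h and 21, 17 and 20 at 48 h. These are 1.15, 0.977 and 0.678 CPM against 0.967, 0.777 and 0.902 CPM, and the groups overlap. The log2 fold change was -0.07, with a 95% interval from -0.69 to 0.55 (adjusted p = 0.852), so changes within that interval were not excluded.

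Levels of different genes were compared per length, as CPM per kilobase of the longest GENCODE M21 transcript. Among ligands at 24 h, Fgf4 led with 96.4 ± 2.74 (SD, n = 3), followed by Fgf17 at 1.66 ± 0.613, Fgf1 at 1.23 ± 0.116, Fgf5 at 0.899 ± 0.209, Fgf15 at 0.824 ± 0.115 and Fgf8 at 0.154 ± 0.111. Fgf17 overlapped both Fgf1 and Fgf5 between libraries, and Fgf5 overlapped Fgf15, so the order of these 4 genes is not fully settled at 24 h. At 48 h the order was Fgf4 at 118.5 ± 0.858 CPM per kilobase, Fgf5 at 22.03 ± 0.624, Fgf15 at 10.7 ± 0.401, Fgf1 at 3.88 ± 0.545, Fgf17 at 1.29 ± 0.197 and Fgf8 at 0.0912 ± 0.0234, with no overlap between neighbours in the order. Fgf5 and Fgf15 held the second and the third place in all 3 of the 48 h libraries. In each library, the length-scaled level of Fgf4 was between 91.9 and 149.5 times that of Fgf5 at 24 h and between 5.22 and 5.57 times at 48 h.

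The share of each gene in the summed length-scaled level of its family describes the same shift. Fgf4 made up 94.8%, 95.6% and 95.4% of the 6 ligands at 24 h and 75.4%, 75.3% and 76.4% at 48 h. Fgf5 went from 0.892% ± 0.221 to 14.1% ± 0.368 (SD, n = 3), Fgf15 from 0.813% ± 0.0971 to 6.86% ± 0.233 and Fgf1 from 1.22% ± 0.112 to 2.48% ± 0.325. The share of Fgf4 became smaller although its own level rose, since the summed ligand level went from 101.1 ± 2.53 to 156.5 ± 1.39 CPM per kilobase. These shares were not tested.

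Among receptors the order was Fgfr1, Fgfr2, Fgfr4 and Fgfr3 at both times, with no overlap between neighbours. The length-scaled level of Fgfr1 went from 30.0 ± 0.668 to 34.4 ± 0.667 CPM per kilobase (SD, n = 3) and that of Fgfr2 from 0.921 ± 0.0154 to 7.51 ± 0.276. Fgfr4 had 0.281 ± 0.0720 and 0.265 ± 0.0290, and Fgfr3 0.0541 ± 0.0469 and 0.161 ± 0.0399. Fgfr2 made up 2.96%, 2.89% and 2.99% of the 4 receptors at 24 h and 16.9%, 17.8% and 18.5% at 48 h, while Fgfr1 went from 95.98% ± 0.257 to 81.3% ± 0.734. The level of Fgfr1 was between 32.2 and 33.2 times that of Fgfr2 in the 24 h libraries and between 4.35 and 4.85 times in the 48 h libraries. Shares depend on the length used: with the union of exons, Fgfr4 took 1.64% of the receptors at 24 h in place of 0.897%, and Fgf15 took 4.38% of the ligands at 48 h.

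**Figure D3:**
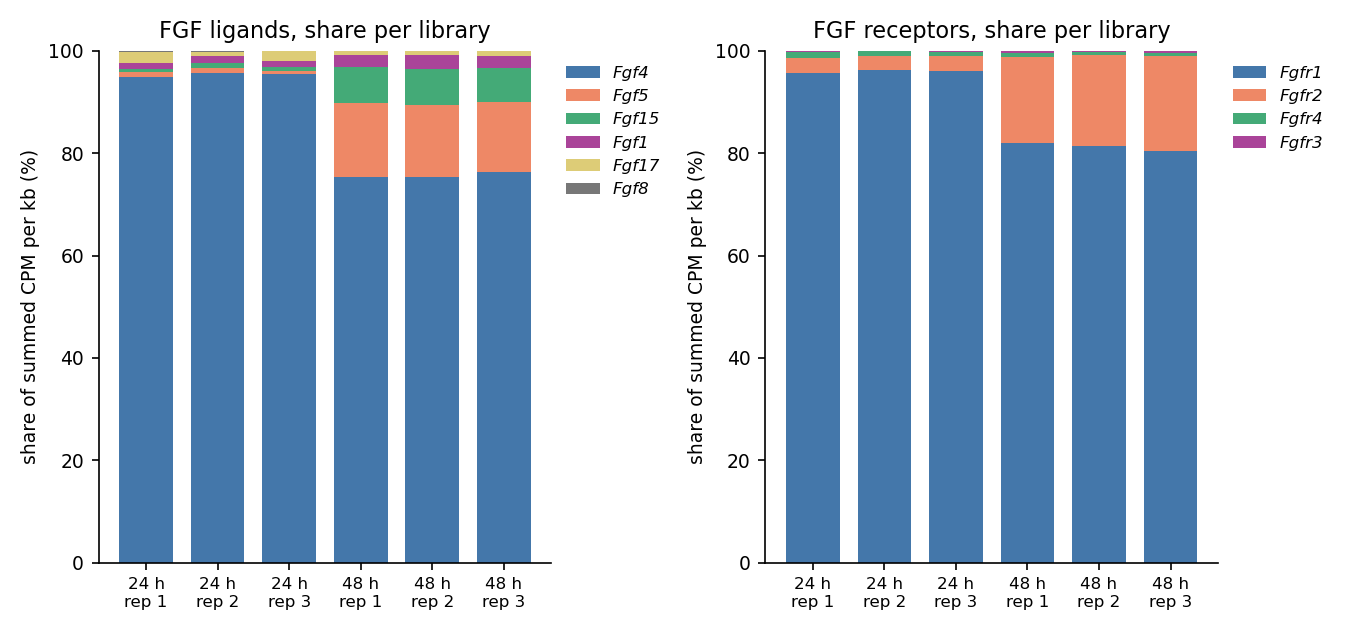
Share of each gene in the summed length-scaled level (CPM per kilobase) of the 6 ligands (left) and the 4 receptors (right), 1 bar per library. Fgf4 takes 94.8% to 95.6% of the ligand bars at 24 h and 75.3% to 76.4% at 48 h, and Fgfr2 widens from between 2.89% and 2.99% to between 16.9% and 18.5% of the receptor bars.

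The genes whose profile over the 6 libraries was most like that of Fgf5, the member with the largest increase, were Insm1, Zfp608 and Enpp2. Likeness is the root mean square difference in log2 CPM centred on each gene's mean, which was 0.0807, 0.0947 and 0.203 among 10427 genes compared. Insm1, a zinc finger gene of neuroendocrine cells, had a log2 fold change of 4.72, Zfp608, another zinc finger gene, which passed the filter only through the 48 h libraries, of 4.84 and Enpp2, which encodes the secreted enzyme autotaxin, of 4.55. With 2 groups of libraries this measure mainly finds genes with a similar step between the times.

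The other genes of the FGF family, 16 in all, were low, the highest mean of a group being the 4.35 CPM of Fgf11 at 24 h. They include genes of intracellular FGF homologues, so the counts and the median below are not those of secreted ligands alone. Only 6 were tested, of which 1 rose and 2 fell, against 30.9% and 31.9% of all genes tested. The median change of these 6 was -0.05 on the log2 scale against -0.01 over all genes tested. The genes named here were chosen after their values were seen. Fgf2, which encodes the ligand that was added to the medium as protein, fell by 1.96 on the log2 scale (standard error 0.256, adjusted p = 4.51e-06), with means of 2.09 ± 0.174 CPM at 24 h and 0.532 ± 0.0711 CPM at 48 h (SD, n = 3). Its counts were 38, 46 and 49.9 at 24 h and 13, 10 and 12 at 48 h, and it passed the filter only through the 24 h libraries. Nudt6, on the opposite strand with 640 shared exon bases, had between 18 and 30 counts in a library. Fgf11, which encodes an intracellular FGF homologue, fell by 0.64 on the log2 scale (adjusted p = 0.00486), and Fgf14, of the same intracellular group, had 5, 0 and 4 counts at 24 h and 19, 12 and 17 at 48 h (log2 fold change 2.33, adjusted p = 0.0016), passing the filter only through the 48 h libraries. Among the 10 untested genes of this list Fgf10 had 6, 17 and 27 counts at 24 h and 3, 3 and 1 at 48 h.

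The next list holds co-receptors, decoys and binding proteins. Of 12 listed genes, 11 were in the table and 10 were tested, of which 3 rose and 4 fell, against 30.9% and 31.9% of all genes tested. Their median change was -0.24 on the log2 scale, and 3 passed the filter through 1 group only. Cdh2, encoding N-cadherin, which can bind FGFR1, rose by 1.355 on the log2 scale (standard error 0.073, adjusted p = 6.83e-11), with means of 8.93 ± 0.366 and 22.8 ± 0.907 CPM (SD, n = 3). The decoy receptor gene Fgfrl1 rose by 0.50 and Fgfbp1, which encodes an FGF carrier protein, by 0.33. Ncam1, encoding another adhesion molecule that binds FGF receptors, fell by 0.76 on that scale (standard error 0.043, adjusted p = 1.57e-10), with means of 60.6 ± 1.65 and 35.8 ± 1.87 CPM (SD, n = 3). The genes of the FLRT transmembrane proteins, which bind FGF receptors, all 3 fell, with log2 fold changes of -1.41 for Flrt1, -0.94 for Flrt2 and -0.49 for Flrt3. Flrt1 passed the filter only through the 24 h libraries, and Flrt1 and Flrt2 had a mean under 5 CPM and were named after their values were seen. Il17rd, encoding the inhibitor SEF, was not called (log2 fold change 0.005, adjusted p = 0.903).

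Heparan sulphate genes, whose products hold the ligand on its receptor, were listed next. Of 25 listed genes 20 were tested, 8 rose and 7 fell, so 15 changed, against 62.8% of all genes tested. These were split about evenly by direction, as were all genes called, and their median change was 0.05 on the log2 scale. Sulf1, encoding an enzyme that removes sulphate groups from heparan sulphate outside the cell, rose by 1.29 on the log2 scale (standard error 0.035, adjusted p = 9.58e-15), with means of 91.7 ± 5.79 and 223.9 ± 4.17 CPM (SD, n = 3). Of the core proteins, Gpc3 and Sdc1 rose by 0.80 and 0.38, and Sdc4 fell by 0.50. Ext2 and Extl3, whose products build the sugar chain, fell by 0.60 and 0.27. Hs6st2, encoding a sulphotransferase, had 7, 8 and 6 counts at 24 h and 62, 57 and 60 at 48 h (log2 fold change 3.03, adjusted p = 3.24e-08). It passed the filter only through the 48 h libraries and was named after its values were seen.

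Genes for the adaptors that bind the activated receptor showed small changes. All 14 were tested, 7 rose and 4 fell, again against 62.8% of all genes changed, and their median change was 0.08 on the log2 scale. With DESeq2 7 were called in place of 11. Cbl, encoding a ubiquitin ligase that marks receptors for breakdown, rose by 0.50 (adjusted p = 2.59e-11), Gab1, encoding a docking protein, by 0.32 and Sos1, encoding a RAS activator, by 0.25. Sos2, another RAS activator, and the adaptor genes Grb2 and Crk fell by 0.25, 0.25 and 0.24, Grb2 with fractional counts. The docking protein gene Frs2 rose by 0.095 (adjusted p = 0.0177).

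Among 15 listed feedback and target genes of the cascade, 14 were tested. In all, 9 rose and 2 fell, against 30.9% and 31.9% of all genes tested, and 3 were not called. The median change of the 14 was 0.34 on the log2 scale, against -0.01 over all genes tested, and 1 of them passed the filter through 1 group only. Dusp4, encoding an ERK phosphatase, rose by 2.03 (adjusted p = 6.39e-15), and Spry4, encoding a Sprouty inhibitor, rose by 0.66. Spred3, encoding a Sprouty-related inhibitor, rose by 1.21 (standard error 0.071, adjusted p = 2.27e-10), with means of 9.84 ± 0.574 and 22.8 ± 0.538 CPM (SD, n = 3). Ggn, which shares 202 exon bases with Spred3 on the opposite strand, had between 4 and 19 counts in a library and also rose (log2 fold change 1.17, adjusted p = 0.0227), passing the filter only through the 48 h libraries. The ETS factor gene Etv4 fell by 0.34, and Spred2 fell by 0.07 (adjusted p = 0.0449), a call that was lost in 6 of the 14 alternative fits, where its adjusted p reached 0.17.

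**Figure D4:**
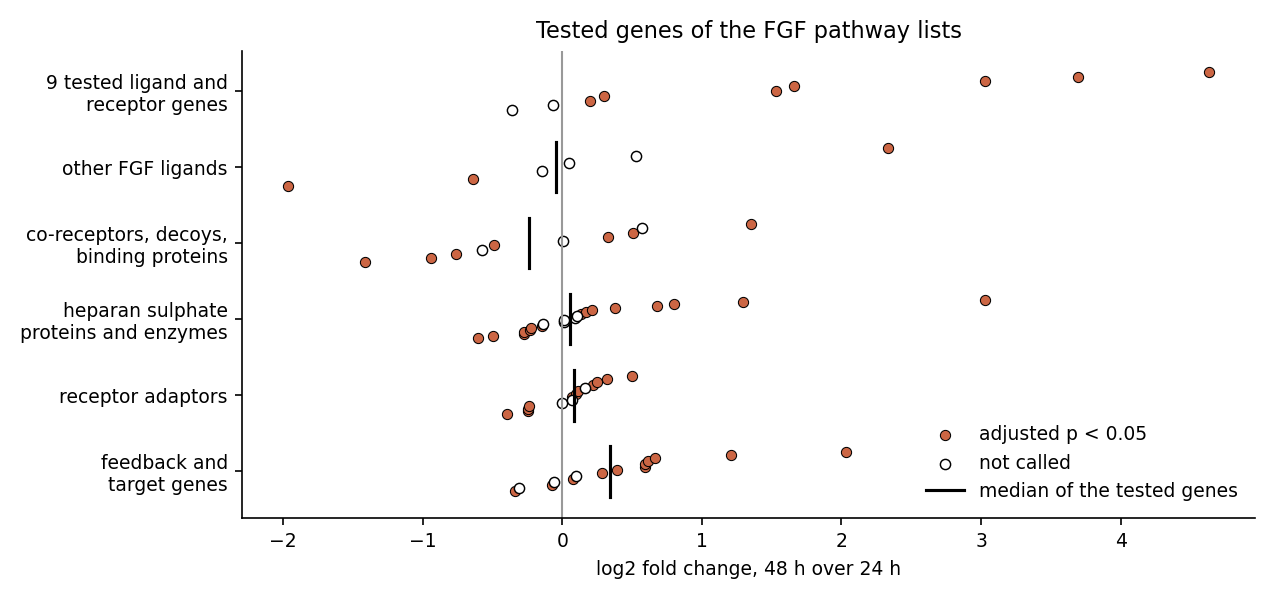
Log2 fold change from 24 h to 48 h of the tested genes in the 5 pathway lists and of the 9 tested ligand and receptor genes; filled points were called at an adjusted p under 0.05 and bars are list medians (none is drawn for the top row). The list medians lie between -0.24 and 0.34, and Fgf5, Fgf15 and Fgfr2 lie at 3.03 and above.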

How the data were processed

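The authors deposited a table of estimated counts per Ensembl gene, which is named as RSEM output, with 1 column per library and 51912 gene rows, not scaled for depth or length. The submitters' processing notes list cutadapt 1.9.1, STAR 2.5.2, RSEM 1.3.0 and the build GRCm38, with no settings. The annotation, strand setting and filters are not given in the sources used here. Gene names were assigned to 51633 rows by Ensembl ID, from GENCODE M21. Gene positions, lengths and overlaps came from GENCODE M21 (GRCm38).

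Counts were rounded, filtered with filterByExpr (minimum count 10, here about 0.449 CPM in 3 libraries) and scaled by TMM. The 48 h and 24 h libraries were compared with edgeR 4.0.16 (R 4.3.3) by the quasi-likelihood test across 14889 genes, with group as the only term, Benjamini-Hochberg adjustment and a threshold of 0.05. A standard error is the size of the log2 fold change over the square root of F. Total counts and the spread between libraries set the precision. Floors of 3 counts cover counting error only.

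Members and lists were chosen with earlier results of these data known. Named by rule were all members, up to 3 rising and 3 falling genes per pathway list with a mean of at least 5 CPM, and the 3 genes most like the member with the largest increase; no member fell, so that side is empty. Marker genes and genes that overlap a named gene were also named; any other gene named was chosen after its values were seen. Same-numbered replicates were not paired: their deviations from group means correlated at -0.046, -0.043 and -0.009. Alternatives were other scalings and filters, unrounded counts, DESeq2 1.42.0, limma 3.58.1 (voom), a replicate block, a threshold of 0.01, other lengths and leaving out each library.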

Additional observations from a re-analysis of the deposited data

How the results depend on the processing

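The count of members that changed was 7 in most alternatives. It was 6 at a threshold of 0.01, without 48 h replicate 1 and under the filter of 10 counts in each library, where Fgfr3 is not tested. Over all genes the count of 9345 lay between 7810 (threshold of 0.01) and 9792 (every gene with a count). Fgf1, Fgf4, Fgf5, Fgf15, Fgfr1 and Fgfr2 kept direction and call in all 14 alternative fits. Leaving out 1 library moved Fgf17 between -0.63 and -0.20 on the log2 scale (called at -0.63, without 24 h replicate 2), Fgfr3 between 0.98 and 1.94 and Fgfr4, which is not called, between -0.27 and 0.10. The member count without 24 h replicate 2 stayed at 7 because Fgfr3 lost its call and Fgf17 gained one. With the replicate block 7 members and 9235 genes changed, and it changed no call of a member. DESeq2 called 7 adaptor genes in place of 11. The causes were not tested. Library size as the only scaling moved the median of all genes from -0.01 to -0.07 and kept the members' calls. Genes with few counts, such as Fgf8, Fgfr3 and Fgfr4, are limited by depth.

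The shares of the families move with the gene length. With the union of exons as length, the receptor shares that moved by more than 1 SD became 95.7% for Fgfr1, 2.47% for Fgfr2 and 1.64% for Fgfr4 at 24 h and 83.1% for Fgfr1, 15.2% for Fgfr2 and 1.18% for Fgfr4 at 48 h. The ligand shares that did became 0.939% for Fgf1, 95.7% for Fgf4 and 0.51% for Fgf15 at 24 h and 1.95% for Fgf1, 77.5% for Fgf4, 15.2% for Fgf5 and 4.38% for Fgf15 at 48 h. With no length scaling, the receptor shares that moved by more than 1 SD became 96.7% for Fgfr1, 2.61% for Fgfr2 and 0.596% for Fgfr4 at 24 h and 83.3% for Fgfr1, 16% for Fgfr2 and 0.423% for Fgfr4 at 48 h. The ligand shares that did became 1.61% for Fgf1, 96.2% for Fgf4, 0.49% for Fgf15 and 0.926% for Fgf17 at 24 h and 3.42% for Fgf1, 79.6% for Fgf4, 12.2% for Fgf5, 0.0236% for Fgf8, 4.3% for Fgf15 and 0.485% for Fgf17 at 48 h.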
